A study of Mus musculus with 15 samples.

Results

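Described here are 10 chemokine genes of the mouse colon across wild type, single mutant and double mutant tissue: Cxcl1, Cxcl2, Cxcl5, Cxcl12, Cxcl13, Ccl2, Ccl19, Ccl20, Ccl25 and Ccl28. They form a set of neutrophil-attracting and homeostatic chemokines, and for each the probe set (the group of short probes that reads 1 transcript) with the highest mean over 15 arrays was taken, among probe sets annotated to exactly 1 gene symbol. Of these 10 genes 9 were measured, by 17 of the 45101 probe sets on the array, and they are 9 of the 18193 genes tested. The probe set of Ccl19, a T cell zone chemokine that binds Ccr7, is annotated to several symbols, so Ccl19 has no value here.

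Chemokines are small secreted proteins that steer white blood cells along gradients by binding receptors that span the cell membrane and signal through G proteins. Cxcl1, Cxcl2 and Cxcl5 are induced in inflamed epithelium and stroma and draw neutrophils through the receptor Cxcr2, whereas Ccl2 draws monocytes through Ccr2. Homeostatic chemokines are made without inflammation: Cxcl12 retains cells that carry Cxcr4, Cxcl13 builds B cell follicles through Cxcr5, and Ccl25 and Ccl28 home lymphocytes and plasma cells to the gut through Ccr9 and Ccr10. Ccl20, made by the epithelium over lymphoid follicles, attracts cells that carry Ccr6 and is not counted among the homeostatic ones here.

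All mice were males aged 3 months, age-matched and sex-matched littermates on a hybrid background of C57BL/6 and 129, and whole colon RNA was hybridised to Affymetrix Mouse430_2 arrays, 3 arrays in each of 5 groups. The groups were wild type colon (APC+/+/Olfm4+/+), APC mutant colon (APC+/-/OLFM4(+/+)), Olfm4 mutant colon (APC+/+/Olfm4-/-), and, from double mutant mice (APC+/-/Olfm4-/-), tissue next to a tumour (adjacent) and tumour tissue. In the Olfm4 mutant group the animal number of replicate 3 combines digits of the other numbers, so whether it is a separate animal is not settled. Every tumour array came from mice without Olfm4, so a change in tumours and a change that needs the loss of Olfm4 cannot be told apart. By their titles the double mutant arrays came from 2 animals: replicate 1 of both tissues from one, and replicates 2 and 3 of both tissues from the other, although the series text states 3 mice for each category. The p-values accordingly reflect only how far these samples spread, which may in part be technical, and the 3 arrays of a group limit the precision.

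Values are log2 levels on the scale the authors deposited, differences are log2 differences with the standard error (SE) of the fit, and adjusted p-values are from limma with Benjamini-Hochberg adjustment over 18193 genes unless probe sets are named. Because a probe set has its own brightness, a level was never set against that of another gene. The only Olfm4 probe set lay between 2.97 and 3.32 on all 15 arrays, near the lowest value of the table (2.56), and so gave no check of the Olfm4 genotype. The 4 Apc probe sets disagree: the kept one ran from 10.04 to 11.31 and was highest in tumours, while another was 8.13 to 8.58 in wild type and 6.01 to 6.62 in tumour arrays. No source used here gives their positions relative to the mutation. Colon epithelium was present throughout: the epithelial adhesion gene Epcam ran from 13.53 to 13.92.

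Some arrays stood apart in ways that touch the chemokines. The difference between the 3-prime and 5-prime probe sets of bacterial spike-in RNAs, a measure of how the labelling went, rose from 1.99 ± 0.083 (SD, n = 3) in wild type through 2.16 ± 0.20 in APC mutant and 2.64 ± 0.52 in Olfm4 mutant arrays to 4.10 ± 0.30 in adjacent tissue and 5.01 ± 0.26 in tumours. The arrays were numbered group after group, so array order and group cannot be told apart. Adjacent replicate 3 differed from the other adjacent arrays in neutrophil genes: the summed level of 11 neutrophil markers was 10.02 in replicate 1, 10.97 in replicate 2 and 13.66 in replicate 3, against 13.37 to 15.09 in the tumours. The brightest markers carry this sum, S100a8 with 8.18, 9.66 and 12.53 and S100a9 with 8.44, 9.29 and 12.35 in the 3 adjacent arrays, and Cxcr2 (3.92, 3.38 and 3.75) did not set replicate 3 apart. Olfm4 mutant replicate 2 was the lowest of its group in 7 of the 9 chemokines.

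**Figure D1:**
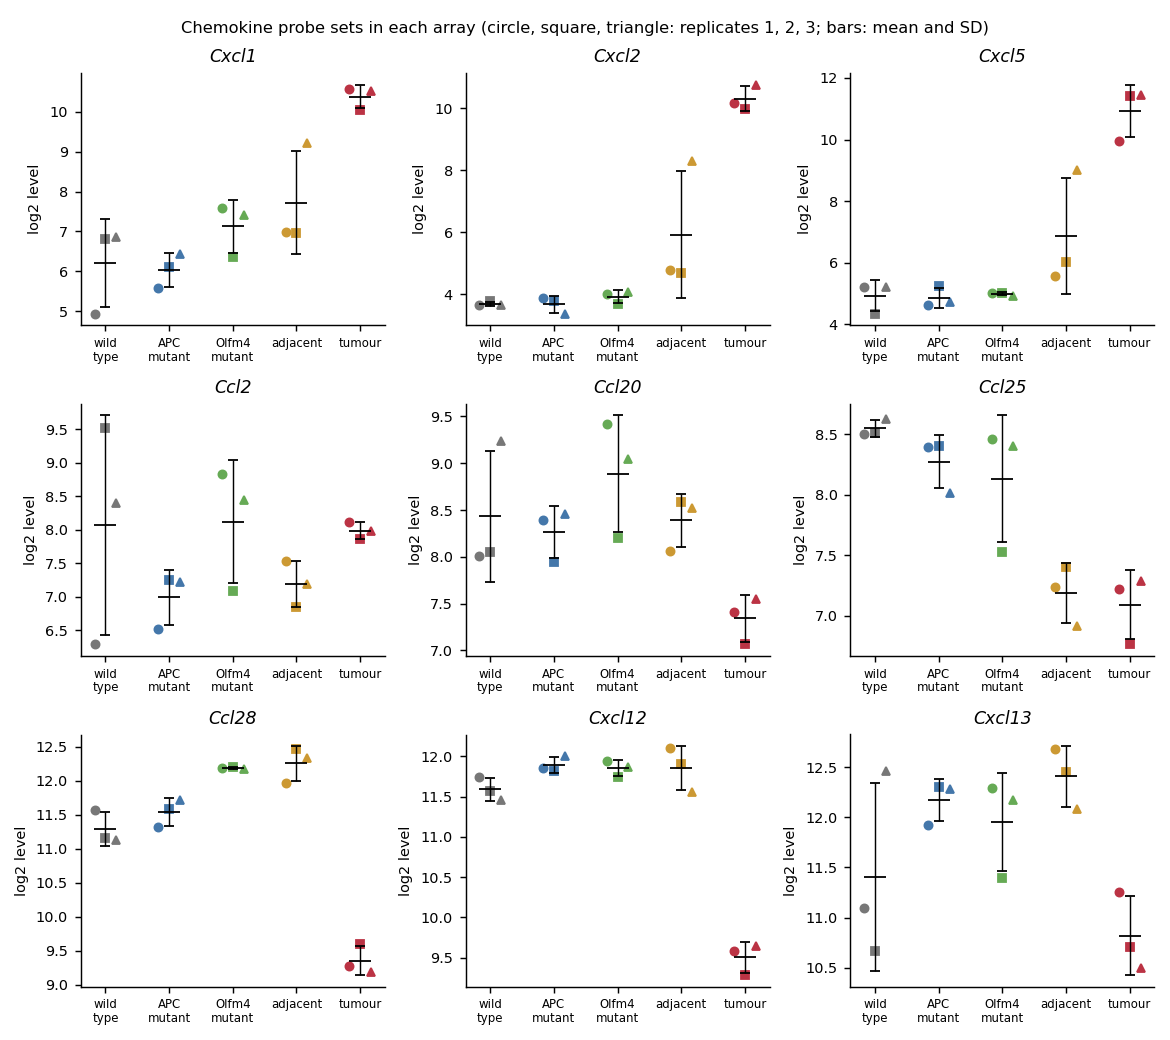
Log2 level of the kept probe set of each of the 9 measured chemokines, 1 panel per gene with its own vertical axis, in wild type, APC mutant, Olfm4 mutant, double mutant adjacent and double mutant tumour arrays. Each symbol is 1 array (circle, square and triangle for replicates 1, 2 and 3), and bars give the mean and SD of 3 arrays. Cxcl1, Cxcl2 and Cxcl5 are highest in the 3 tumour arrays with adjacent replicate 3 next, and Cxcl12 and Ccl28 are lowest in the 3 tumour arrays.

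The tumours of double mutant mice were first compared with adjacent colon. The neutrophil-attracting chemokines rose and most of the homeostatic ones fell: 7 of the 9 measured genes were called at an adjusted p under 0.05, of which 3 were higher and 4 lower. Over all genes 28.1% were called in this comparison (14.3% higher, 13.8% lower). The groups' arrays did not overlap for 8 of the 9, against 45.9% of all genes. The median difference of the 9 genes was -0.09, beside 0.00 for all genes, because rises and falls offset each other.

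Cxcl2, a neutrophil attractant of inflamed tissue, differed most. Its level in replicates 1, 2 and 3 was 3.65, 3.77 and 3.67 in wild type, 3.88, 3.77 and 3.37 in APC mutant, 4.00, 3.67 and 4.06 in Olfm4 mutant, 4.78, 4.69 and 8.30 in adjacent, and 10.18, 9.99 and 10.76 in tumour arrays. Tumour arrays lay above all others, adjacent replicate 3 lay between the tumours and the rest, and the 9 arrays of the other 3 groups lay within 1 narrow band near the lower end of the scale. Cxcl2 was 20.9-fold higher in tumour than in adjacent tissue (log2 4.39, SE 0.69, adjusted p = 0.00042) and 98.0-fold higher than in wild type (log2 6.62, SE 0.69, adjusted p = 7.3e-06). Without adjacent replicate 3 the difference from adjacent tissue was 5.58.

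Cxcl5, which is made chiefly by epithelial cells and also binds Cxcr2, followed the same order. It stood at 5.21, 4.34 and 5.22 in wild type, 4.62, 5.23 and 4.73 in APC mutant, 5.02, 5.03 and 4.93 in Olfm4 mutant, 5.57, 6.04 and 9.02 in adjacent, and 9.96, 11.40 and 11.44 in tumour arrays. The tumour piece of the animal with 1 piece per tissue was the lowest of the 3 tumours, and still above every adjacent array. The rise over adjacent tissue was 16.7-fold (log2 4.06, SE 0.70, adjusted p = 0.00076), or 5.13 on the log2 scale without adjacent replicate 3, and that over wild type was 64.4-fold (log2 6.01, adjusted p = 1.6e-05).

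Cxcl1, the mouse chemokine also called KC, varied more between arrays without tumour. Its levels were 4.94, 6.80 and 6.87 in wild type, 5.59, 6.10 and 6.44 in APC mutant, 7.59, 6.37 and 7.42 in Olfm4 mutant, 6.99, 6.97 and 9.22 in adjacent, and 10.58, 10.04 and 10.53 in tumour arrays. Wild type replicate 1 was lower than the other wild type arrays by more than the 3 tumour arrays differed among themselves. The rise from adjacent to tumour was 6.31-fold (log2 2.66, SE 0.62, adjusted p = 0.0057), and 3.40 on the log2 scale without adjacent replicate 3. The kept Cxcl1 probe set carries a suffix for probes that can match several transcripts, and 2 further probe sets of Cxcl1 gave 2.94 and 2.64 (adjusted p = 0.0023 and 0.0019 over 45037 probe sets).

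Spike-in quality moved with this comparison, as tumour arrays had the larger 3-prime to 5-prime difference. With that difference as a covariate Cxcl2 was still called higher in tumour than in adjacent tissue (3.69, SE 1.06, adjusted p = 0.044), and Cxcl5 (3.06, adjusted p = 0.079) and Cxcl1 (2.34, adjusted p = 0.15) were not. Its part in the rise was otherwise not tested.

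Cxcl1, Cxcl2 and Cxcl5 lie in 1 cluster of related genes on chromosome 5, in the order Cxcl5, Ppbp, Pf4, Cxcl3, Cxcl15, Cxcl1 and Cxcl2 by the RefSeq annotation of GRCm38.p6. Cxcl3, another Cxcr2 ligand between them, was 15.5-fold higher in tumour than in adjacent tissue (log2 3.96, SE 0.69, adjusted p = 0.00083). Its level was 3.88, 3.30 and 7.16 in adjacent and 8.62, 8.49 and 9.09 in tumour arrays, so adjacent replicate 3 was again nearest the tumours. Ppbp, a platelet protein that attracts neutrophils, rose by 2.48 (adjusted p = 0.00017), with adjacent levels of 6.17, 5.59 and 7.38 and tumour levels of 9.21, 8.53 and 8.85. Cxcl15, known from lung epithelium, rose by 2.45 (adjusted p = 4.8e-06), with adjacent levels of 5.26, 4.88 and 5.78 and tumour levels of 7.73, 7.61 and 7.91. Pf4, the platelet chemokine that does not act through Cxcr2, stood at -0.23 (SE 0.18, adjusted p = 0.41) in the middle of the cluster. Without adjacent replicate 3 these differences were 5.15 for Cxcl3, 2.99 for Ppbp, 2.68 for Cxcl15 and -0.34 for Pf4.

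**Figure D2:**
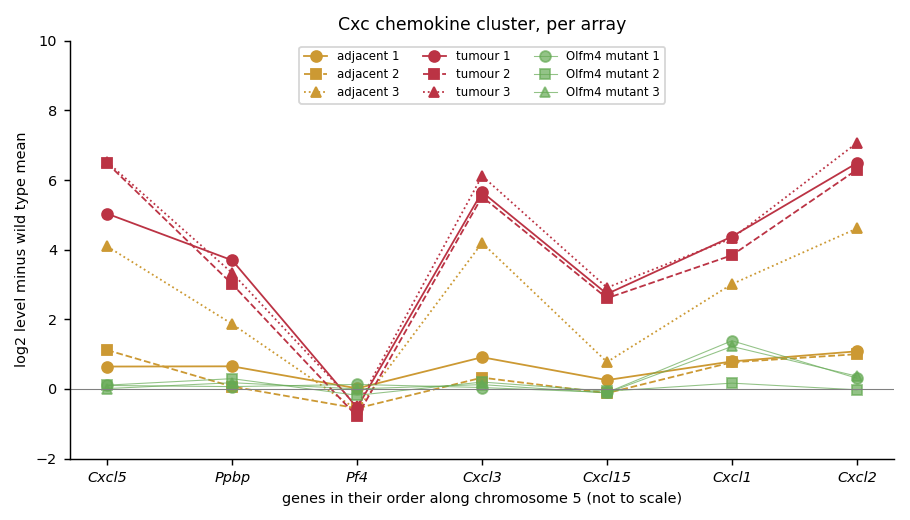
Log2 level minus the wild type mean for the 7 Cxc genes in their order along chromosome 5, each line 1 array of the adjacent (yellow), tumour (red) or Olfm4 mutant (green) group, with circle, square and triangle for replicates 1, 2 and 3. Distances along the horizontal axis are not to scale. The 3 tumour lines are high at Cxcl5, Cxcl3 and Cxcl2 and drop at Pf4, and adjacent replicate 3 runs between them and the other arrays except at Pf4.

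The windows before the start sites of the chemokines that rose together were read for the binding motif of NF-kappaB, the transcription factor of inflammatory signalling, because these genes are textbook targets of it. Promoter entries were found for 8 of the 10 genes in the RefSeq windows of GRCm38.p6 (250 bases before the start), and Cxcl5 and Ccl2 had none. The motif searched, on both strands, was GGG, any 3 bases, then TTCC, a loose form that occurs in 4.65% of 32851 such windows. The classical consensus was searched beside it (GGG, A or G, any base, A or T, C or T, C or T, then CC). It occurs in 3.9% of the windows. The last 110 bases before the start site are printed 5′ to 3′ on the plus strand, with motif matches on either strand in capitals. Where matches on both strands overlap, the capitals span both. Cxcl1, Cxcl2 and neighbouring Cxcl3 are shown because they rose in the tumours, Ccl20 because it holds a match and fell, and Ccl28 because it fell most.
Cxcl1, chr5:90891135-90891244: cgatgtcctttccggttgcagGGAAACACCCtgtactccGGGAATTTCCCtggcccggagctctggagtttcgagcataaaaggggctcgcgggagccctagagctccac
Cxcl2, chr5:90903789-90903898: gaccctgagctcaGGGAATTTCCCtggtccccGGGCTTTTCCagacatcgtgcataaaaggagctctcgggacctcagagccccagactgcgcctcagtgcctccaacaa
Cxcl3, chr5:90785991-90786100: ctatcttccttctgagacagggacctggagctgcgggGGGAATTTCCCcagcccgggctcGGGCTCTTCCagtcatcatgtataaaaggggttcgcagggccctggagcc
Ccl20, chr1:83116656-83116765: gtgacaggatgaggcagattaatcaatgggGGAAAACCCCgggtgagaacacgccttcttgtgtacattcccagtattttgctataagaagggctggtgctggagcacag
Ccl28, chr13:119623709-119623818: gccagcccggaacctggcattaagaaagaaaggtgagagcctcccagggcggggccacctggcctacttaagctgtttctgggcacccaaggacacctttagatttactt

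Cxcl1, Cxcl2 and Cxcl3 each hold the same stretch GGGAATTTCC, beginning 71 bases before the start in Cxcl1, 97 in Cxcl2 and 73 in Cxcl3, and each holds a further match: GGGTGTTTCC on the minus strand in Cxcl1, GGGCTTTTCC in Cxcl2 and GGGCTCTTCC in Cxcl3. Ccl20 holds GGGGTTTTCC on the minus strand, 80 to 71 bases before the start. The stretch shared by Cxcl1, Cxcl2 and Cxcl3 and the match of Ccl20 meet the classical consensus. The further matches of Cxcl1, Cxcl2 and Cxcl3 meet only the loose form. No match of either form lay in the windows of Cxcl12, Cxcl13, Ccl19, Ccl25 or Ccl28, nor in those of the neighbours Ppbp, Pf4 and Cxcl15. Ppbp and Cxcl15 rose without a match and Ccl20 fell with one. A match is a stretch of letters in this window and no binding was measured.

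Cxcr2, the receptor of these ligands on neutrophils, was at 3.26 to 3.61 in the 9 arrays of wild type, APC mutant and Olfm4 mutant colon, at 3.92, 3.38 and 3.75 in adjacent and at 4.14, 6.83 and 6.22 in tumour arrays. It rose by 2.05 over adjacent tissue (SE 0.47, adjusted p = 0.0057), but with the replicate block, which pairs adjacent and tumour pieces by number, the adjusted p was 0.070. Adjacent replicate 3 had high ligand levels and a Cxcr2 level like that of the other adjacent arrays, and tumour replicate 1 had high ligand levels with the lowest Cxcr2 level of the tumours. Neutrophil genes moved with the ligands: 7 of 11 measured markers were higher in tumour than in adjacent tissue and 0 lower, beside 14.3% and 13.8% of all genes. Their median difference was 1.14 beside 0.00 for all genes. Mmp9, a protease stored in neutrophil granules and also made by other cells, rose by 3.79 (adjusted p = 0.00062). S100a9, a calcium-binding protein abundant in neutrophils, rose by 2.89 (SE 0.96, adjusted p = 0.040), with 8.44, 9.29 and 12.35 in adjacent and 11.34, 13.58 and 13.83 in tumour arrays. Without adjacent replicate 1 or 2, or without tumour replicate 2 or 3, the adjusted p of S100a9 was 0.12 to 0.16. Elane, the elastase of immature neutrophils, lay between 3.36 and 4.05 on all 15 arrays, and Ly6g, the mouse neutrophil surface marker, was not analysed here. In RNA of whole tissue pieces, more cells of a type and more RNA per cell cannot be told apart, and the part of neutrophil number in the ligand levels was not tested.

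The cytokines and NF-kappaB genes that lie upstream of these ligands were read from a list of 21, of which 17 were measured. In tumour against adjacent tissue 6 were higher and 2 lower, with a median difference of 0.24, beside 14.3% and 13.8% of all genes. All the higher ones were cytokines, and none of the measured NF-kappaB subunits and regulators was called in either direction. Il23a, the subunit that defines interleukin 23, rose by 3.93 (SE 0.26, adjusted p = 5.3e-07), from 5.59, 4.78 and 6.14 in adjacent to 9.40, 9.27 and 9.62 in tumour arrays. Il6 rose by 1.53 (adjusted p = 0.0018). Il17rc, a subunit of the interleukin 17 receptor, fell by 1.17 (adjusted p = 3.4e-05), and Nod1, a sensor of bacterial cell walls, fell by 0.78 (adjusted p = 0.0030).

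Among the receptors of the 10 chemokines 12 of 13 were measured, and beside Cxcr2 only Cxcr5 and Ackr1 passed the test between tumour and adjacent tissue, 3 of 12 beside 28.1% of all genes. Cxcr5, the receptor of Cxcl13 on follicular B cells, fell by 1.51 (SE 0.39, adjusted p = 0.011), and without adjacent replicate 1 its adjusted p was 0.052. Ackr1, the non-signalling receptor on venules that binds Cxcl1, Cxcl5 and Ccl2, fell by 1.23 (adjusted p = 0.0020). The others did not pass: Ccr2 stood at 0.36, Ackr3 at 0.30, Ackr4 at 0.13, Ccr7 at 0.05, Ackr2 at -0.06, Ccr9 at -0.23, Cxcr4 at -0.24, Ccr10 at -0.35 and Ccr6 at -1.06 (adjusted p = 0.16, or 0.0058 with the replicate block).

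Ccl2 and Ccl20 behaved differently from the Cxcr2 ligands. Ccl2, the monocyte attractant, stood at 6.28, 9.52 and 8.39 in wild type, 6.51, 7.24 and 7.21 in APC mutant, 8.83, 7.08 and 8.45 in Olfm4 mutant, 7.53, 6.84 and 7.19 in adjacent, and 8.12, 7.86 and 7.98 in tumour arrays. Its wild type arrays spanned a wider range than all other arrays together, while the tumour arrays lay close to each other and above the adjacent ones. The difference of 0.80 between tumour and adjacent tissue did not pass (SE 0.64, adjusted p = 0.41). It passed with the replicate block (adjusted p = 0.015) and with only these 2 groups in the fit (adjusted p = 0.021).

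Ccl7, the next gene to Ccl2 on chromosome 11 and also a monocyte attractant, was read beside it. It stood at 5.20, 8.36 and 7.81 in wild type, 5.85, 6.43 and 6.22 in APC mutant, 7.89, 5.92 and 7.72 in Olfm4 mutant, 6.83, 5.65 and 6.04 in adjacent, and 6.86, 6.74 and 6.35 in tumour arrays. The order of the 3 arrays was that of Ccl2 in every group except the tumours. Ccl7 was singled out after its values were seen.

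Ccl20, the attractant of dendritic cells and lymphocytes with Ccr6, was at 8.01, 8.05 and 9.24 in wild type, 8.39, 7.95 and 8.45 in APC mutant, 9.42, 8.20 and 9.05 in Olfm4 mutant, 8.07, 8.59 and 8.52 in adjacent, and 7.41, 7.06 and 7.55 in tumour arrays. The tumour arrays were the lowest 3 of all 15. Ccl20 fell by 1.05 against adjacent tissue (SE 0.35, adjusted p = 0.038) and by 1.09 against wild type (adjusted p = 0.019). These calls were weak: against adjacent tissue only 1 of the 6 fits with 1 array left out kept it (that without adjacent replicate 1, adjusted p = 0.041; up to 0.12 for the others), and against wild type the difference was -0.69 without wild type replicate 3 (adjusted p = 0.086). With the spike-in covariate Ccl20 stood at -0.45 against adjacent tissue (adjusted p = 0.65).

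Among the homeostatic chemokines Ccl28 fell most. Ccl28, the ligand of Ccr10 that is made by colon epithelium and attracts IgA plasma cells, stood at 11.57, 11.16 and 11.12 in wild type, 11.32, 11.59 and 11.71 in APC mutant, 12.18, 12.21 and 12.17 in Olfm4 mutant, 11.97, 12.46 and 12.33 in adjacent, and 9.28, 9.60 and 9.19 in tumour arrays. Tumour arrays were below all others, Olfm4 mutant and adjacent arrays above all wild type and APC mutant ones. The fall from adjacent to tumour tissue was 7.46-fold (log2 -2.90, SE 0.17, adjusted p = 2.6e-07), and that from wild type 3.80-fold (log2 -1.93, adjusted p = 1.8e-06). Both further probe sets of Ccl28 fell too, by 2.04 and 2.19 against adjacent tissue (adjusted p = 1.7e-05 and 1.2e-06 over 45037 probe sets). With the spike-in covariate the fall from adjacent tissue was 3.07 (adjusted p = 5.6e-05).

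Cxcl12, the stromal chemokine that holds Cxcr4-bearing cells in place, was nearly as clear. Its kept probe set stood at 11.74, 11.57 and 11.46 in wild type, 11.85, 11.81 and 12.00 in APC mutant, 11.95, 11.74 and 11.87 in Olfm4 mutant, 12.10, 11.90 and 11.56 in adjacent, and 9.58, 9.28 and 9.65 in tumour arrays. The 12 arrays without tumour lay close together and the 3 tumours lay apart below them. The fall from adjacent to tumour tissue was 5.10-fold (log2 -2.35, SE 0.15, adjusted p = 3.8e-07), and 2.03 on the log2 scale with the spike-in covariate (adjusted p = 0.00013). Another Cxcl12 probe set fell less (-1.22, adjusted p = 0.00045 over 45037 probe sets), and the third, which ran from 6.02 to 6.52 over the 15 arrays, did not pass (0.11, adjusted p = 0.66).

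Cxcl13, the chemokine that gathers B cells into follicles, stood at 11.10, 10.67 and 12.46 in wild type, 11.93, 12.30 and 12.29 in APC mutant, 12.30, 11.40 and 12.18 in Olfm4 mutant, 12.69, 12.46 and 12.08 in adjacent, and 11.25, 10.71 and 10.49 in tumour arrays. Tumour arrays were below adjacent ones, but overlapped the wild type arrays, of which replicate 3 was the highest. Cxcl13 fell by 1.59 against adjacent tissue (SE 0.39, adjusted p = 0.0082), and against wild type the difference was -0.59 (adjusted p = 0.23). Averaging the arrays of an animal gave an adjusted p of 0.058 for the first comparison, and the spike-in covariate gave -1.20 (adjusted p = 0.24). A second probe set of Cxcl13 gave -1.15 against adjacent tissue (adjusted p = 0.084 over 45037 probe sets) and -1.20 against wild type (adjusted p = 0.039).

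B cell genes moved with Cxcl13. Of 11 measured B cell and follicle markers 9 were lower in tumour than in adjacent tissue and 0 higher, with a median difference of -2.09, beside 13.8% of all genes lower. They were led by Ms4a1, the B cell surface protein CD20, at -4.01 (adjusted p = 0.0099), and Fcmr, the IgM receptor, at -3.60 (adjusted p = 0.0013). Against wild type 2 of the 11 were lower in tumours (median -0.40), beside 20.1% of all genes. In adjacent colon 5 were higher than in wild type (median 1.20), beside 17.7% of all genes. The summed level of these markers was 10.55 to 12.47 in wild type, 11.25 to 12.47 in APC mutant, 11.30 to 11.93 in Olfm4 mutant, 12.12 to 12.91 in adjacent and 9.69 to 10.28 in tumour arrays. Within groups the order of the arrays matched that of Cxcl13 in wild type, Olfm4 mutant and adjacent arrays, and not in the other groups. APC mutant replicate 2 was the highest for Cxcl13 and the lowest for the markers, and the 3 tumour arrays stood in the reverse order. The part of lymphoid follicles in each tissue piece was not tested. Plasma cell markers fell in 6 of 8 and rose in 1, beside 13.8% and 14.3% of all genes. Absorptive colonocyte markers and smooth muscle markers fell in 8 of 8 each, so that several cell types moved with Ccl28 and Cxcl12 as well. Of 9 fibroblast and stroma markers 1 was higher and 1 lower, with a median difference of 0.12. Lower markers were 4 of 8 in the epithelial and 1 of 8 in the endothelial list. They were 1 of 9 in the monocyte and macrophage and 1 of 7 in the T cell list.

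**Figure D3:**
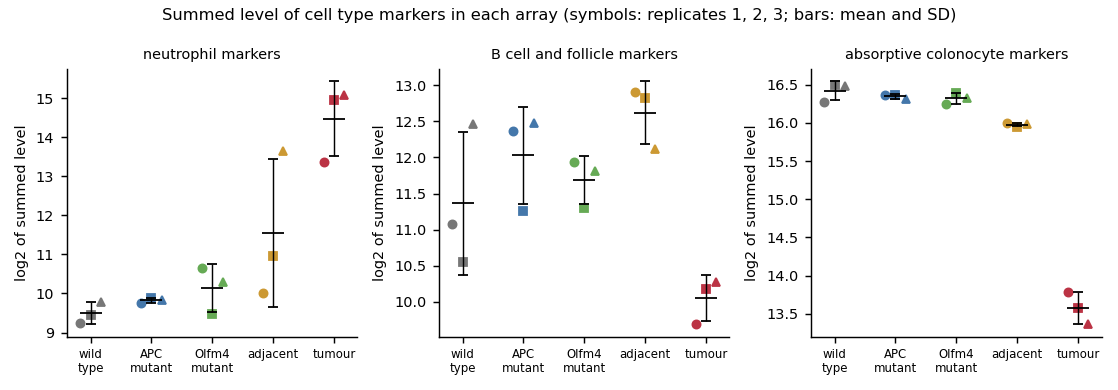
Log2 of the summed level of 11 neutrophil, 11 B cell and follicle and 8 absorptive colonocyte markers in each array of the 5 groups, with symbols for replicates 1, 2 and 3 and bars for the mean and SD of 3 arrays. Neutrophil markers run from 13.37 to 15.09 in tumours with adjacent replicate 3 at 13.66, B cell and follicle markers are lowest in tumours (9.69 to 10.28), and absorptive colonocyte markers are lowest in tumours too (13.36 to 13.79).

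Ccl25, the ligand of Ccr9 best known from small intestine and thymus, was called in neither direction between tumour and adjacent tissue. It stood at 8.50, 8.51 and 8.63 in wild type, 8.40, 8.40 and 8.02 in APC mutant, 8.46, 7.53 and 8.40 in Olfm4 mutant, 7.23, 7.40 and 6.92 in adjacent, and 7.22, 6.76 and 7.29 in tumour arrays. Both double mutant tissues lay below every other array, and overlapped each other (-0.09, SE 0.23, adjusted p = 0.82), but with the spike-in covariate Ccl25 was called higher in tumours (0.72, SE 0.19, adjusted p = 0.031). Against wild type Ccl25 fell by 1.36 in adjacent (adjusted p = 0.0015) and by 1.46 in tumour tissue (adjusted p = 0.00021). Its level followed the reverse order of the spike-in difference over the groups, and with that covariate the difference from wild type turned to 0.53 in adjacent tissue (SE 0.36) and 1.25 in tumours (SE 0.50), neither called. A dimmer Ccl25 probe set ran from 5.71 to 6.90 and passed in neither comparison with wild type. It gave 0.05 in adjacent and 0.15 in tumour tissue (adjusted p = 0.91 and 0.66 over 45037 probe sets). The receptor Ccr9 rose in adjacent against wild type tissue by 1.64 (adjusted p = 0.0036), opposite to its ligand.

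Tumours were then compared with wild type colon, which has neither mutation. Again 7 of 9 genes were called, 3 higher (Cxcl1, Cxcl2 and Cxcl5) and 4 lower (Ccl20, Cxcl12, Ccl25 and Ccl28), beside 49.4% of all genes (29.3% higher, 20.1% lower). Cxcl1 rose 18.1-fold (log2 4.18, adjusted p = 0.00011), the kept Cxcl12 probe set fell by 2.08 (adjusted p = 4.0e-07) and Ccl2 stood at -0.08 (adjusted p = 0.93). The further Cxcl12 probe sets stood at 0.27 and -0.004 (adjusted p = 0.27 and 0.98 over 45037 probe sets). For 7 of 9 genes the arrays did not overlap, against 55.2% of all genes. With the spike-in covariate, which nearly coincides with this contrast, 0 of the 9 and 1 of all genes were called: Cxcl2 was then at 4.29 (SE 2.74) and Ccl28 at -2.50 (SE 0.66).

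Adjacent colon of double mutant mice was next compared with wild type, which asks whether these genes differ before tumour tissue is reached. Of the 9 genes 3 were called, Cxcl2 and Ccl28 higher and Ccl25 lower, beside 27.8% of all genes (17.7% higher, 10.1% lower). For 5 of 9 genes the arrays did not overlap, against 40.1% of all genes. By the kept probe sets every adjacent array lay above every wild type array for Cxcl1, Cxcl2 and Cxcl5. A further Cxcl1 probe set kept this order, while another overlapped. The latter stood at 4.99, 6.21 and 6.35 in wild type and 6.54, 6.07 and 8.22 in adjacent arrays. Cxcl2 was higher by 2.23 (SE 0.69, adjusted p = 0.030), and by 1.04 without adjacent replicate 3 (adjusted p = 0.0089). That call was lost without any 1 of the wild type arrays (adjusted p up to 0.066) and with animal as a random block (2.13, adjusted p = 0.092). Cxcl5 stood at 1.95 (adjusted p = 0.053) and Cxcl1 at 1.52 (adjusted p = 0.085), or at 0.88 (adjusted p = 0.16) and 0.78 (adjusted p = 0.33) without adjacent replicate 3. Adjacent replicates 2 and 3 came from the same animal by their titles, yet Cxcl2 stood at 4.69 in the one and 8.30 in the other.

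The level of Ccl28 in adjacent colon exceeded that in wild type by 0.97 (SE 0.17, adjusted p = 0.0015), while its other probe sets stood at -0.01 and 0.09 (adjusted p = 0.98 and 0.71 over 45037 probe sets). Cxcl12 showed the opposite pattern: its kept probe set stood at 0.27 (adjusted p = 0.20), while another was higher by 1.48 (adjusted p = 0.00021 over 45037 probe sets), with 6.39, 5.94 and 6.12 in wild type and 7.39, 7.90 and 7.61 in adjacent arrays. Cxcl13 stood at 0.999 (adjusted p = 0.076), or at 1.53 without wild type replicate 3 (adjusted p = 0.0041). Ccl20 stood at -0.04 and Ccl2 at -0.88 (adjusted p = 0.94 and 0.34), the latter at -1.77 without wild type replicate 1 (adjusted p = 0.014). With the spike-in covariate 0 of the 9 and 0 of all genes were called in this comparison.

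**Figure D4:**
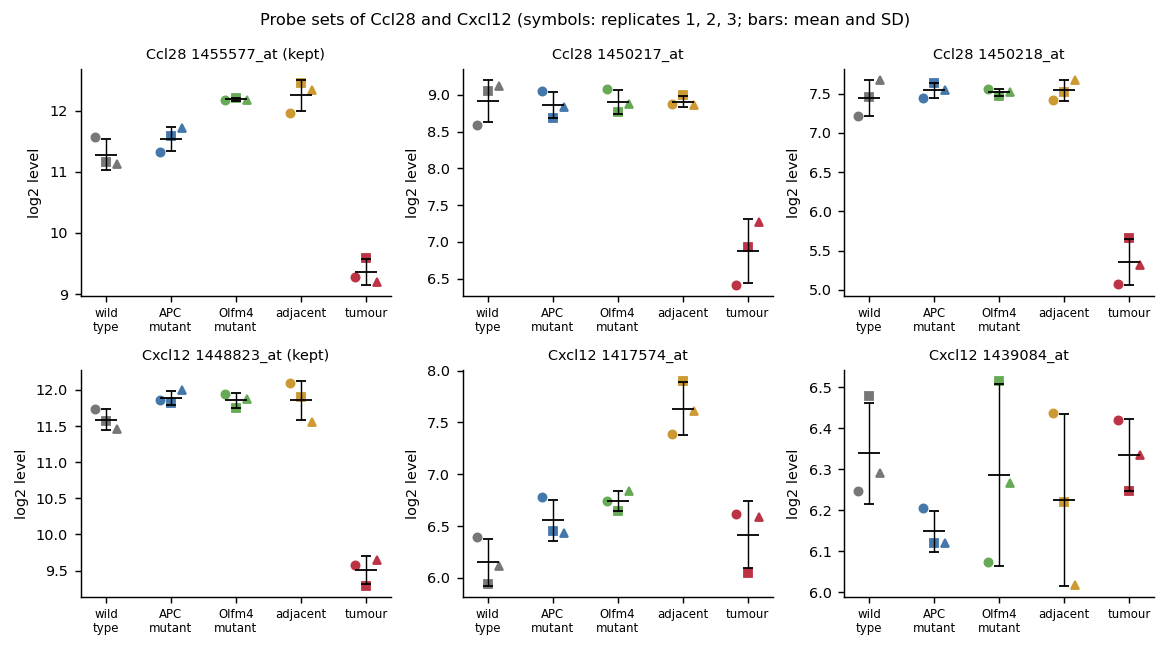
Log2 level of the 3 probe sets of Ccl28 (top) and of Cxcl12 (bottom) in each array of the 5 groups, with symbols for replicates 1, 2 and 3 and bars for the mean and SD of 3 arrays; each panel has its own vertical axis. All Ccl28 probe sets are lowest in the tumours, and only the kept one is higher in Olfm4 mutant and adjacent than in wild type arrays. The kept Cxcl12 probe set is lowest in tumours, a second is highest in adjacent arrays, and the third runs from 6.02 to 6.52.

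Against wild type, Olfm4 mutant colon had 1 of the 9 chemokines called, Ccl28 by its kept probe set. Over all genes 7.92% were called (5.42% higher, 2.5% lower). Ccl28 was 1.87-fold higher in Olfm4 mutant than in wild type colon (log2 0.90, SE 0.17, adjusted p = 0.011), with all 3 Olfm4 mutant arrays above all 3 wild type arrays. Arrays did not overlap for 3 of the 9 genes, Ccl28, Cxcl12 and Ccl25, against 27% of all genes. It kept that call with each array left out in turn (adjusted p up to 0.049, and 0.047 without replicate 3 of the Olfm4 mutants), and lost it with only these 2 groups in the fit (adjusted p = 0.067). The mean of its 3 probe sets gave 0.32 (adjusted p = 0.13), since the other probe sets stood at -0.01 and 0.07, and the spike-in covariate gave 0.78 (adjusted p = 0.19). The other chemokines did not pass: Cxcl1 stood at 0.92 (adjusted p = 0.39), Cxcl13 at 0.55 (0.43), Ccl20 at 0.46 (0.46), Ccl25 at -0.42 (0.30) and Cxcl12 at 0.26 (0.29).

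A heterozygous APC mutation alone gave 0 called genes among the 9 and 0 among all 18193 by limma. At an unadjusted p under 0.05 the counts were 0 of 9 and 1324 of 18193. Differences from wild type ran from -1.08 for Ccl2 (adjusted p = 0.76) to 0.76 for Cxcl13 (adjusted p = 0.71), and the 3 Cxcr2 ligands stood at -0.16 (Cxcl1), -0.02 (Cxcl2) and -0.06 (Cxcl5). For 2 of 9 genes the arrays did not overlap, against 9.13% of all genes: Cxcl12 (0.30) and Ccl25 (-0.27).

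Loss of Olfm4 on the APC mutant background was read from adjacent against APC mutant colon, as far as tissue next to a tumour stands for that genotype. Of the 9 genes 3 were called, the same ones as against wild type colon, beside 17.3% of all genes (9.88% higher, 7.45% lower); both comparisons share the adjacent arrays. Arrays did not overlap for 5 of 9 genes, against 39.5% of all genes. Cxcl2 was higher by 2.25 (adjusted p = 0.041), Ccl28 was higher by 0.72 (adjusted p = 0.013) and Ccl25 fell by 1.09 (adjusted p = 0.0092). The further probe sets did not share these calls: those of Ccl28 stood at 0.05 and 0.00 (adjusted p = 0.89 and 0.999 over 45037 probe sets) and that of Ccl25 at 0.01 (adjusted p = 0.97), while a Cxcl12 probe set other than the kept one was higher by 1.08 (adjusted p = 0.0021). Without any 1 of the APC mutant arrays Cxcl2 was no longer called (adjusted p up to 0.098), nor with animal as a random block (2.16, adjusted p = 0.12), and Ccl28 was not called without APC mutant replicate 1 or without adjacent replicate 2 or 3 (adjusted p up to 0.058). Whether the effect of Olfm4 loss differed between the APC genotypes was tested as an interaction: 0 of all genes passed, and the adjusted p of the 9 chemokines ran from 0.50 to 0.97.

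**Figure D5:**
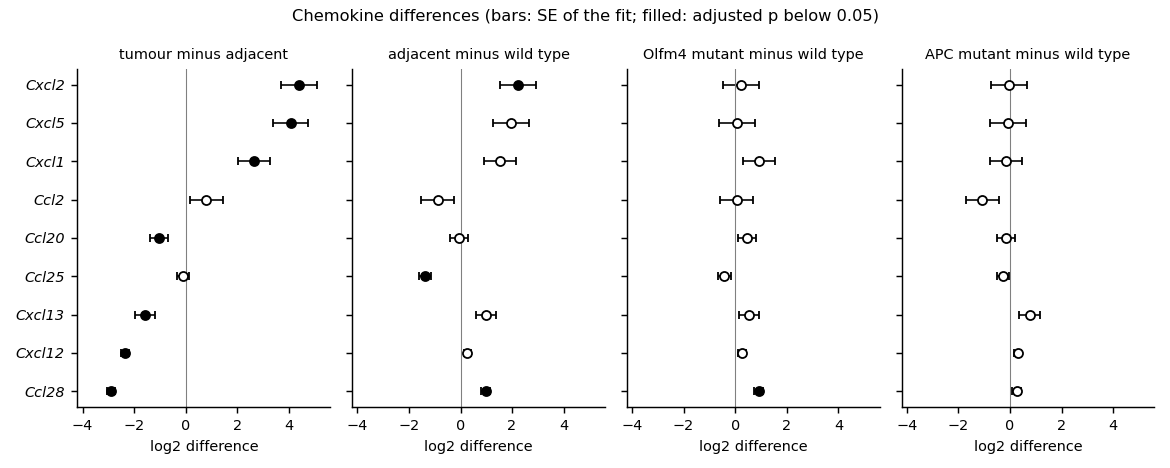
Log2 difference of each measured chemokine in tumour minus adjacent, adjacent minus wild type, Olfm4 mutant minus wild type and APC mutant minus wild type tissue. Points are fitted differences with bars of 1 SE (3 arrays per group), filled where the limma adjusted p was below 0.05. Filled points number 7, 3, 1 and 0 in the 4 panels.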

How the data were processed

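Colon RNA was isolated with Trizol and hybridised as biotin-labelled cRNA, per the labels' protocols. The authors deposited log2 values, with RMA and Partek 6.5 named in the submitters' processing notes. Their range (2.56 to 14.96) and array medians (6.35 to 6.47) are those of a log2 scale. RMA quantile normalizes the arrays together, so a shift shared by most genes is largely removed. No source used here gives detection calls or a genome build.

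Of 45101 probe sets 34945 carried 1 symbol in the platform annotation and gave 18193 genes, 1 probe set each. Probe sets with several symbols (932) or none (9160) and 64 controls were left out, and no filter on dim genes was applied. A model of 5 group means was fitted to 15 arrays with limma 3.58.1 in R 4.3.3, at an adjusted p of 0.05, after a check on simulated data. All members and up to 4 genes of each other list (the 2 largest rises and 2 largest falls that passed), plus all receptors, were named. Members and lists were chosen with earlier results of these data known. Adjacent and tumour arrays are paired by the animals in their titles. Pairs 2 and 3 share an animal and were matched by piece number, so the replicate block treats that animal as separate pairs. Deviations from group means correlated at 0.281, -0.0155 and 0.182 for pairs 1, 2 and 3. Crossed pairs of the shared animal (adjacent 2 with tumour 3, adjacent 3 with tumour 2) gave 0.126 and 0.124. Between animals the range was -0.259 to -0.0881. Those negative values are partly fixed, because deviations within a group cancel out, so they do not test the pairing. Alternatives were another summary of probe sets, a filter on dim genes, cyclic loess, a trend and robust prior, the spike-in covariate, only the 2 groups compared, animal or replicate blocks, averaged animals and each array left out.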

Additional observations from a re-analysis of the deposited data

How the results depend on the processing

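Most differences of the 9 chemokines kept their side of the threshold. With 1 array left out 303 of 324 did, among them 24 that passed in neither fit and changed sign, while 16 calls were lost and 5 gained. Under the other alternatives 333 of 369 did, among them 15 such sign changes, while 26 calls were lost, 4 gained and 6 differences reversed. In both counts most differences were uncalled in the main fit and so had no call to lose. The reversals were Ccl25 with the spike-in covariate in tumour against adjacent (0.72), tumour against wild type (1.25), adjacent against wild type (0.53) and adjacent against APC mutant tissue (0.65), Ccl20 with that covariate in tumour against wild type tissue (0.90), and Cxcl12 with the mean of its probe sets in adjacent against APC mutant tissue (0.37).

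With the spike-in covariate the chemokines called were 4 in tumour against adjacent tissue (2144 of all genes), 0 in tumour against wild type (1), 0 in adjacent against wild type (0), 0 in Olfm4 mutant against wild type (20) and 0 in adjacent against APC mutant (0). With only genes above the median level (8.39) in the fit, 9096 genes were tested. Cxcl12, Cxcl13 and Ccl28 were the only chemokines among them, and no Cxcr2 ligand was tested. That fit called 3 chemokines and 3329 genes in tumour against adjacent, and 2 and 5898 in tumour against wild type. In adjacent tissue it called 1 chemokine and 3979 genes against wild type, and 1 and 2589 against APC mutant. A fit of only the 2 groups compared called 3184 genes in adjacent against wild type, 33 genes and 0 chemokines in Olfm4 mutant against wild type. The mean of all probe sets gave 0 chemokines and 1008 genes in the latter. Averaging the arrays of an animal left 5 chemokines and 3286 genes in tumour against adjacent, without Ccl20 and Cxcl13. It left 6 chemokines and 7810 genes in tumour against wild type, without Ccl20. In adjacent tissue it called 3 chemokines and 3360 genes against wild type, and 3 and 1651 against APC mutant. The share of called genes that were higher in Olfm4 mutant against wild type was 68.5%, and 53% with cyclic loess.

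The replicate block called 8 chemokines and 4940 genes in tumour against adjacent tissue, adding Ccl2. It changed no other call among the 9 chemokines, and among the receptors those of Cxcr2 and Ccr6.

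With 1 array left out the chemokines and genes called ran from 6 to 7 and 3914 to 4570 in tumour against adjacent, 6 to 7 and 7936 to 8470 in tumour against wild type, 2 to 4 and 3448 to 5032 in adjacent against wild type, 1 to 1 and 279 to 2236 in Olfm4 mutant against wild type, 0 to 0 and 0 to 188 in APC mutant against wild type, and 1 to 4 and 1578 to 2826 in adjacent against APC mutant tissue. The causes of these changes were not tested. The deposited values carry no detection calls, so it is unknown which of the lowest levels (Cxcl2, Cxcl3 and Cxcr2 without tumour) lie above background.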

Other observations

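Of 26 measured chemokines outside the group, 7 were higher and 4 lower in tumour than in adjacent tissue, with a median difference of 0.35. Of all genes 14.3% were higher and 13.8% lower. Beside the cluster genes, Ccl3, a macrophage and granulocyte attractant, rose by 2.26 (SE 0.38, adjusted p = 0.00064), and Cxcl14, an epithelial chemokine, by 1.55 (SE 0.24, adjusted p = 0.00040). Both also differed in adjacent against wild type colon, by 1.38 for Ccl3 (adjusted p = 0.017) and 1.62 for Cxcl14 (adjusted p = 0.00076), and neither had been picked by the rule for named genes in the first comparison. Cxcl14 stood at 9.66, 10.02 and 10.54 in wild type, 11.84, 11.31 and 11.92 in adjacent and 13.24, 13.20 and 13.29 in tumour arrays, so the 3 groups did not overlap. The spike-in difference rises over these groups in the same order, and with it as a covariate 0 of all genes, Ccl3 and Cxcl14 included, were called in adjacent against wild type colon. Ccl11, the eosinophil attractant, fell by 1.56 (adjusted p = 0.0065), and Cx3cl1, the membrane-bound chemokine fractalkine, fell by 1.50 (adjusted p = 0.00093). The interferon-induced ligands of Cxcr3, named after their values were seen, did not pass: Cxcl9 stood at 1.53 (SE 1.06, adjusted p = 0.33), Cxcl11 at 1.22 (adjusted p = 0.22) and Cxcl10 at 0.74 (adjusted p = 0.56).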
